A study of Sus scrofa with 3 samples.

Results

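Markers of adipose progenitors and of the stroma around fat cells were followed in visceral adipose tissue (VAT), here retroperitoneal fat, of male Wuzhishan miniature pigs. The set comprised 10 genes chosen by name as known markers, PDGFRA, PDGFRB, DLK1, CD34, DPP4, PI16, THY1, ENG, DCN and LUM, and all 10 were among the 22826 mRNA genes with a deposited value. Of them, 9 were above 0 in every library and DLK1 was listed at 0 in all 3. The pigs, 6 to 7 months old when obtained, were fed the same diet rich in fat and cholesterol (HFC) for 12 weeks in every group. Intact pigs with a skin incision only (IM), castrated pigs (CM) and castrated pigs injected weekly with 10 mg/kg testosterone propionate in corn oil (CMT) were compared. Equal amounts of RNA from the pigs were pooled into 1 library per group. The labels give between 4 and 6 pigs per pool and the methods give 4. No group has a replicate, so no difference below has a check against the spread between pigs, and no corn oil control is described for the other groups.

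Adipose tissue grows in part by the differentiation of mesenchymal progenitor cells that lie in the connective tissue and along the vessels between mature adipocytes. Such cells carry the platelet-derived growth factor (PDGF) receptors alpha and beta, and progenitors far from the adipocyte fate are marked by DPP4 and PI16, whereas DLK1 (Pref-1) marks preadipocytes and restrains their differentiation. THY1, CD34 and ENG are surface proteins used to sort stromal cells, although CD34 and ENG are also abundant on endothelium. DCN and LUM encode small leucine-rich proteoglycans that fibroblasts secrete into the collagen matrix.

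Values are given in UQRPKM, which are reads per kilobase of gene scaled by the upper quartile of each library's values, so that levels can be compared between genes as well as between libraries. Reads recovered from these values came to between 13449107 and 14844063 on mRNA genes per library. A 95% interval beside a ratio is the exact Clopper-Pearson interval from those reads and covers counting error only, since reads of amplified libraries are not independent molecules. The CM library carried hepatocyte RNA markers, led by ALB (albumin) and TF (transferrin), with 9 listed genes that summed to 15.8 UQRPKM in IM against 6595 in CM and 21.1 in CMT. The CMT library carried skeletal muscle markers, among them ACTA1, MYH7 and MYLPF, with a sum of 82.3 UQRPKM in IM compared with 68.3 in CM and 6130 in CMT over 10 genes, of which CKM and MB were at 0 in every library. Adipocyte markers were abundant in all libraries, and ADIPOQ (adiponectin) had 74928 UQRPKM in IM against 69193 in CM and 63873 in CMT.

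The 9 detected markers covered a wide range of abundance. DCN was the highest of them and lay within the top 0.626% of expressed mRNA genes in each library. THY1, LUM, ENG and PI16 followed between 1212 and 2896 UQRPKM. CD34, PDGFRB and PDGFRA lay between 288 and 1076 UQRPKM. DPP4 was the lowest, between 8.81 and 18.8 UQRPKM, and its reads numbered only 51 in IM compared with 30 in CM and 66 in CMT. The order of the genes was the same in the 3 libraries except that ENG exceeded PI16 in IM and stood below it in CM and CMT. THY1 and LUM, neighbours in that order, lay closest in CMT, at 2425 and 2416 UQRPKM. Together the markers took 0.448% of the mRNA reads in IM (exact binomial 95% interval 0.444% to 0.451%), 0.431% in CM (0.428% to 0.435%) and 0.524% in CMT (0.520% to 0.528%). DCN alone gave 29814 of 66475 marker reads in IM, 28788 of 58585 in CM and 39121 of 70478 in CMT. The summed share therefore depends largely on this gene, and 5 of the 9 markers were lower in CMT than in IM.

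**Figure D1:**
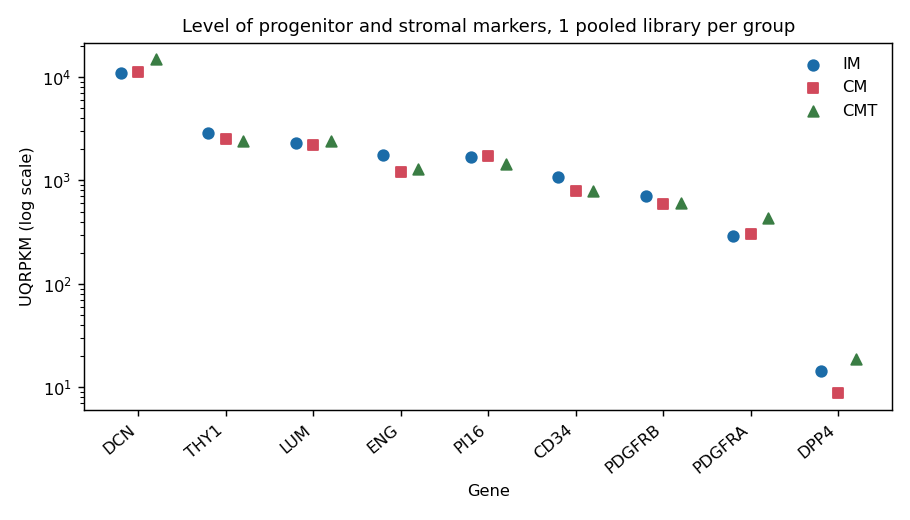
Level of the 9 detected markers in UQRPKM on a log scale (vertical axis) for each gene (horizontal axis), with 1 point per pooled library (circles IM, squares CM, triangles CMT) and no error bars because each group is 1 library. DCN stands at 11012 UQRPKM or more in all libraries and DPP4 at 18.8 or less, and for ENG and CD34 the IM point is the highest.

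The PDGF receptors are receptor tyrosine kinases that keep progenitors and pericytes growing, and the alpha receptor is the usual marker of adipose progenitors. PDGFRA had 288 UQRPKM in IM against 306 in CM and 434 in CMT. The IM and CM values lay close together and the CMT value stood above both. The log2 ratio was 0.09 in CM versus IM (95% interval -0.03 to 0.20), 0.50 in CMT versus CM (0.40 to 0.61) and 0.59 in CMT versus IM (0.48 to 0.69). The last lies just past the 1.5-fold threshold of the study's methods.

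PDGFRB, the receptor of pericytes and vascular smooth muscle, had another order of libraries. It had 707 UQRPKM in IM compared with 595 in CM and 606 in CMT, so that the intact library was highest and the castrated libraries lay close together. Its log2 ratio was -0.25 in CM versus IM (-0.31 to -0.18), 0.03 in CMT versus CM (-0.04 to 0.09) and -0.22 in CMT versus IM (-0.29 to -0.16). The ratio of PDGFRA to PDGFRB within a library does not depend on how the library was scaled. This ratio was 0.408 in IM (0.383 to 0.434), 0.514 in CM (0.482 to 0.548) and 0.715 in CMT (0.676 to 0.757), and the 3 counting intervals did not overlap.

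Of the PDGF ligands, PDGFA had 171, 210 and 203 UQRPKM and PDGFC had 141, 175 and 168 UQRPKM in IM, CM and CMT, respectively. Both signal through the alpha receptor, and both were higher in the castrated libraries than in IM by less than 1.5-fold. PDGFD, a ligand of the beta receptor, had 106, 102 and 113 UQRPKM, and its counting intervals included 0 in all comparisons. PDGFRL, a secreted protein that resembles the receptors, had 551 UQRPKM in IM against 501 in CM and 1018 in CMT, which was 2.03-fold higher in CMT than in CM (log2 ratio 1.02, 0.90 to 1.15). In the RefSeq gene order of Sscrofa 11.1, PDGFRA lies next to the receptor genes KIT and KDR, and PDGFRB lies next to CSF1R. The high value of PDGFRA in CMT was not seen in these neighbours, since KIT had 34.9, 30.8 and 30.9 UQRPKM and KDR had 721, 549 and 542.

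DLK1 was listed at 0 in IM, CM and CMT. A count of 0 allows up to 3 reads in each library, for counting error only. A value of 0 need not mean absence in these data, since 6 of 67 genes named as ribosomal proteins were listed at 0 in all libraries as well. Of all 22826 mRNA genes, 5990 were at 0 in all libraries. The imprinted region of DLK1 was not silent throughout. Its neighbour MEG3, a long noncoding RNA classed as miscRNA, had 37 reads in IM against 50 in CM and 23 in CMT (18.0, 25.5 and 11.4 UQRPKM). DIO3, the thyroid hormone-inactivating deiodinase of the same region, had 38, 10 and 57 reads, and RTL1 was listed at 0 in every library. DLK2, the closest relative of DLK1, had 2 reads in IM compared with 2 in CM and 0 in CMT. Among the Notch receptors, through which DLK1 is thought to act, NOTCH2 had 440, 372 and 413 UQRPKM. NOTCH3 had 481, 345 and 297 UQRPKM and NOTCH4 had 255, 216 and 168, and both were highest in IM and lowest in CMT.

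DPP4 encodes the surface peptidase CD26 and marks multipotent progenitors of the interstitium. It had 14.3 UQRPKM in IM against 8.81 in CM and 18.8 in CMT, so the castrated library was the lowest and the testosterone-treated library the highest. The log2 ratio was -0.70 in CM versus IM (-1.40 to -0.02), 1.10 in CMT versus CM (0.45 to 1.77) and 0.40 in CMT versus IM (-0.15 to 0.96). The corresponding folds were 1.62 lower, 2.14 higher and 1.32 higher. With so few reads, a difference between CMT and IM was not detectable at this depth. FAP, a related peptidase whose gene lies close to DPP4, was far more abundant, with 429, 470 and 409 UQRPKM, and stayed within 1.15-fold.

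PI16, a secreted peptidase inhibitor found with DPP4 in interstitial progenitors, did not share the low value of DPP4 in CM. It had 1668 UQRPKM in IM compared with 1720 in CM and 1447 in CMT, and thus the treated library was the lowest. Its log2 ratio was 0.04 in CM versus IM (-0.01 to 0.10), -0.25 in CMT versus CM (-0.31 to -0.19) and -0.20 in CMT versus IM (-0.27 to -0.14). THY1 (CD90), a surface protein of mesenchymal cells, had 2896 UQRPKM in IM against 2499 in CM and 2425 in CMT. It was highest in the intact library, with a log2 ratio of -0.21 in CM versus IM (-0.26 to -0.16) and -0.26 in CMT versus IM (-0.31 to -0.21), whereas CM and CMT differed by -0.04 (-0.09 to 0.01).

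DPP4 had the widest range of the markers, and its pattern was searched among the 8541 other mRNA genes with at least 100 reads in each library. The nearest by distance of centred log2 values over the 3 libraries was LOC100514098, with 20.4 UQRPKM in IM compared with 13.3 in CM and 26.3 in CMT. HIF1AN followed with 23.1, 15.8 and 32.2 UQRPKM, and then CDPF1, LOC100739056 and RHNO1. Only 1 gene lay within a distance of 0.1, and 3 libraries give little basis for likeness.

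Other genes of progenitors and preadipocytes were followed as a list of 28, of which 23 had a deposited value and 21 were tested. In CM versus IM, 2 were higher and 2 lower by 1.5-fold or more, where 8.38% and 10.4% of all mRNA genes tested were. The 2 lower genes were TCF21 and PRRX1, both on few reads, and the median log2 ratio was -0.09. Between CMT and CM, 3 were higher and 1 lower in CMT, against 9.53% and 9.97% of all genes (median -0.04). In CMT versus IM, 2 were higher and 2 lower, against 8.81% and 11.9% (median -0.05). With 21 genes, these counts lie near those shares and are not in themselves a result about the list. CD55, a complement regulator found on DPP4-positive progenitors, had 49.0, 35.8 and 64.8 UQRPKM and was 1.81-fold higher in CMT than in CM. MFAP5, a microfibril protein of the same cells and the highest gene of the list, had 3776, 3565 and 3297 UQRPKM and was lowest in CMT, like PI16. TCF21, a transcription factor of visceral fat progenitors, had 17 reads in IM against 3 in CM and 13 in CMT.

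Differences in other genes of that list did not share a direction. CD9, a tetraspanin also found on macrophages and many other cells, had 205 UQRPKM in IM compared with 663 in CM and 340 in CMT. SFRP1, a secreted Wnt antagonist, had 953, 1584 and 1219 UQRPKM and was 1.66-fold higher in CM than in IM. CD248 (endosialin), a protein of pericytes and fibroblasts, had 575, 437 and 333 UQRPKM and was 1.73-fold lower in CMT than in IM. CLEC11A, a bone growth factor of stromal cells, had 80.2, 71.7 and 51.7 UQRPKM and was 1.55-fold lower in CMT than in IM. NT5E (CD73), a surface marker of mesenchymal cells, had 15.0, 13.4 and 21.8 UQRPKM and was 1.63-fold higher in CMT than in CM. PRRX1, a mesenchymal transcription factor, had 16.0, 9.45 and 13.8 UQRPKM on 32, 18 and 27 reads. Its counting intervals included 0 in all comparisons, so its order of libraries is not resolved. The genes named before it did not all have the same order of libraries. PDPN (podoplanin) had 150, 175 and 250 UQRPKM and was 1.66-fold higher in CMT than in IM. PDPN is also expressed by mesothelium, and the 8 mesothelial markers with a value summed to 123 UQRPKM in IM against 209 in CM and 504 in CMT, with LRRN4 at 0 throughout. Of the 5 tested in CMT versus IM, 4 passed 1.5-fold upward, among them KRT8, MSLN and UPK3B, and KRT18 passed downward. Of all mRNA genes tested, 8.81% passed upward and 11.9% downward. The part of mesothelial cells in the value of PDPN was not tested.

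CD34 and ENG, like PDGFRB and THY1, were higher in the intact library than in both castrated libraries. CD34, a sialomucin of progenitors and endothelium, had 1076 UQRPKM in IM compared with 784 in CM and 796 in CMT. The castrated libraries lay close together and below IM, with a log2 ratio of -0.46 in CM versus IM (-0.52 to -0.39) and -0.43 in CMT versus IM (-0.50 to -0.37). CMT and CM differed by 0.02 (-0.05 to 0.09). ENG (endoglin), a co-receptor for ligands of the TGF-beta family, had 1759 UQRPKM in IM against 1212 in CM and 1295 in CMT. Its log2 ratio was -0.54 in CM versus IM (-0.59 to -0.49), which is 1.45-fold lower, and -0.44 in CMT versus IM (-0.49 to -0.39). The value in CMT exceeded that in CM by 0.10 on the log2 scale (0.04 to 0.15). Neither gene reached 1.5-fold in any comparison. IM is shared by these ratios, which are therefore not independent.

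Endothelial markers lay on the same side. All 10 with a value were lower in CM than in IM, with a median log2 ratio of -0.27, where 6108 of all 14123 genes tested were higher. The sign of TIE1, at -0.05 on 13 and 12 reads, depends on the scaling, since median ratio scaling adds 0.062 to every ratio. ESAM alone passed 1.5-fold downward (530, 250 and 291 UQRPKM), against 10.4% of all genes tested. Relative to IM, 7 of 9 were lower in CMT (median -0.26), where 5938 of all 14151 genes tested were higher. ESAM and ROBO4 passed 1.5-fold downward, against 11.9% of all genes tested. Between CMT and CM the median was -0.01. The endothelial markers summed to 11150 UQRPKM in IM compared with 9509 in CM and 10050 in CMT. None was at 0 in all libraries, although TIE1 was at 0 in CMT. PECAM1, the highest of them, had 4338, 4038 and 4735 UQRPKM and was thus not lower in CMT than in IM. The part of endothelial cells in the values of CD34 and ENG was not tested. In RNA of whole tissue, fewer cells of a type and less RNA per cell cannot be told apart.

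Pericyte and smooth muscle markers, which bear on PDGFRB and THY1, did not all share a direction. Of 9 that were tested, 6 were lower in CM than in IM, and the median log2 ratio was -0.45. Of all 14123 mRNA genes tested, 6108 were higher, so this count of directions is not in itself a result about the list. Past 1.5-fold downward were 3 of the 9, against 10.4% of all mRNA genes tested. The 3 were DES, KCNJ8 (270, 177 and 232 UQRPKM) and CNN1 (153, 101 and 142 UQRPKM). The most abundant were ACTA2 (smooth muscle actin), with 2643, 1800 and 1654 UQRPKM, and TAGLN (transgelin), with 2600, 2153 and 2090. RGS5, a defining marker of pericytes, had 287, 360 and 267 UQRPKM and was higher in CM than in IM. Between CMT and CM the list had a median of 0.21, in which DES (desmin) stood apart with 52.9, 33.0 and 459 UQRPKM. DES is also expressed by skeletal muscle, whose markers were high in the same library. Relative to IM, the median in CMT was -0.11, with ACTA2 and MCAM (550, 402 and 333 UQRPKM) lower by 1.5-fold or more. DES and ABCC9, a potassium channel subunit of pericytes (54.7, 62.7 and 84.1 UQRPKM), were higher. Of all mRNA genes tested, 8.81% were higher and 11.9% lower by that fold. CSPG4 (NG2) had 38.1, 43.1 and 49.7 UQRPKM and was also highest in CMT. MYH11 was at 0 in every library, and the summed level was 6648 UQRPKM in IM against 5131 in CM and 5310 in CMT. The part of mural cells in the values of PDGFRB and THY1 was not tested.

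The ligands and partner receptors of ENG did not share a direction. ACVRL1, the type I receptor that works with ENG in endothelium, had 507, 446 and 426 UQRPKM. TGFB1 had 402, 291 and 303 UQRPKM and TGFBR3, a co-receptor related to ENG, had 541, 464 and 495 UQRPKM. TGFB3, another TGF-beta ligand, had 24.9, 23.2 and 33.8 UQRPKM and was highest in CMT, with a log2 ratio of 0.54 to CM (0.29 to 0.80) and 0.44 to IM (0.20 to 0.69). GDF2, a ligand of ACVRL1 and ENG that is made in the liver, had 0 reads in IM compared with 7 in CM and 2 in CMT, with the highest number in the library that carried hepatocyte markers. Over the list of PDGF, Notch and TGF-beta partners, 15 genes were tested. None passed 1.5-fold in CM versus IM (median log2 ratio -0.18), where 8.38% of all genes were higher and 10.4% lower. PDGFRL alone was higher in CMT versus CM (median 0.06), against 9.53% of all genes. In CMT versus IM, PDGFRL was higher and NOTCH3 and NOTCH4 were lower (median -0.09), against 8.81% and 11.9% of all genes.

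DCN (decorin) binds collagen fibrils and growth factors and was the most abundant of the markers. It had 11012 UQRPKM in IM against 11158 in CM and 14747 in CMT, on 29814, 28788 and 39121 reads. IM and CM differed by 1.32%, with a counting interval that included 0, and CMT stood above both. The log2 ratio was 0.40 in CMT versus CM (0.38 to 0.42) and 0.42 in CMT versus IM (0.40 to 0.44), which are 1.32-fold and 1.34-fold. LUM (lumican), the neighbouring gene and a related keratan sulfate proteoglycan, had 2285, 2213 and 2416 UQRPKM. Its log2 ratio was -0.05 in CM versus IM (-0.10 to 0.00), 0.13 in CMT versus CM (0.08 to 0.18) and 0.08 in CMT versus IM (0.03 to 0.13). LUM therefore had the smallest range of the markers, 1.09-fold. The ratio of DCN to LUM within a library was 4.82 in IM (4.69 to 4.95), 5.04 in CM (4.90 to 5.18) and 6.10 in CMT (5.95 to 6.26).

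In the RefSeq gene order, DCN and LUM are followed by KERA and EPYC, which belong to the same family. KERA (keratocan), known from cornea and tendon, had 5.91 UQRPKM in IM compared with 19.3 in CM and 54.6 in CMT, on 17, 53 and 154 reads. It was 9.24-fold higher in CMT than in IM (log2 ratio 3.21, 2.48 to 4.03). EPYC (epiphycan), known from cartilage, had 4, 1 and 30 reads. The 4 adjacent genes thus differed in CMT by very unequal amounts. Elsewhere in the genome, FMOD (fibromodulin) had 280, 320 and 719 UQRPKM and was 2.24-fold higher in CMT than in CM. BGN (biglycan), the closest relative of DCN, had 2511, 1866 and 2311 UQRPKM and was lowest in CM.

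Of the other small leucine-rich proteoglycans, 7 were tested in CMT versus CM. FMOD, KERA and CHAD passed 1.5-fold, against 9.53% of all mRNA genes tested. In CMT, 6 of the 7 were higher, where 6670 of all 14098 genes tested were, and the median log2 ratio was 0.58. Relative to IM, 7 of 8 were higher in CMT, where 5938 of all 14151 genes tested were, with a median of 0.68. The 4 past 1.5-fold, against 8.81% of all genes, were FMOD, KERA, EPYC and CHAD. Of these, KERA, EPYC and CHAD had only 17, 4 and 66 reads in IM. The more abundant BGN, PRELP and PODN had log2 ratios of -0.12, 0.07 and 0.27. The summed level was 4979 UQRPKM in IM against 3941 in CM and 5613 in CMT. In CM versus IM the median was 0.11 and KERA alone passed. The CMT library also carried the muscle markers and had the highest sum of mesothelial markers, 504 UQRPKM against 123 in IM and 209 in CM. The part of connective tissue of muscle, or of mesothelium, in the values of DCN, PDGFRA and these proteoglycans was not tested.

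**Figure D2:**
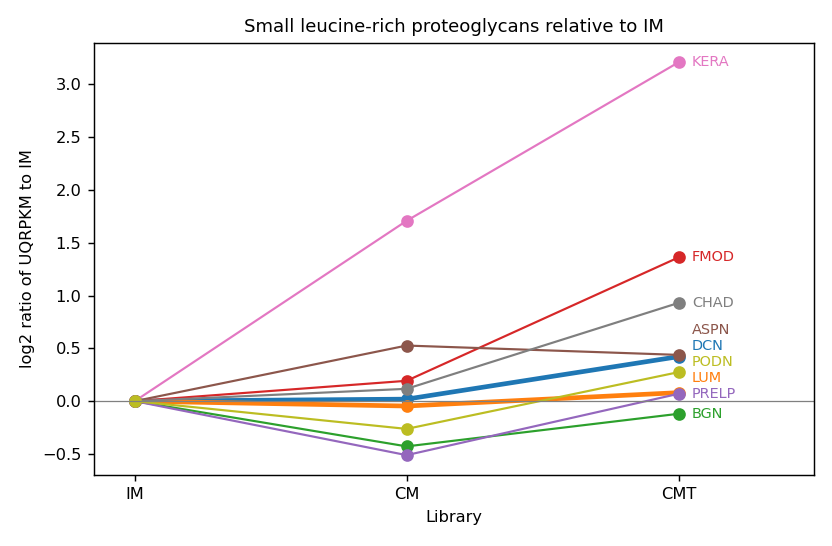
Log2 ratio of UQRPKM to the IM library (vertical axis) in IM, CM and CMT (horizontal axis) for DCN and LUM (thick lines) and the other small leucine-rich proteoglycans with at least 10 reads in every library, 1 library per group. KERA reaches 3.21 and FMOD 1.36 in CMT, whereas DCN reaches 0.42 and LUM 0.08, and the lines only join values of the same gene.

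Matrix genes of fibroblasts differed among themselves in direction. Of 16 tested, 13 were lower in CM than in IM (median log2 ratio -0.27), where 6108 of all 14123 genes tested were higher. Of the 16, 3 passed 1.5-fold downward, against 10.4% of all mRNA genes tested. COL1A1 had 4453, 2235 and 2580 UQRPKM, FBLN2 had 63.0, 34.8 and 31.9, and COL3A1, the highest, had 43498, 46011 and 39816 UQRPKM. Between CMT and CM, 10 were higher in CMT (median 0.22), where 6670 of all 14098 genes tested were. MGP, POSTN and COL14A1 passed 1.5-fold, against 9.53% of all genes. MGP, an inhibitor of calcification, had 5700, 6150 and 12210 UQRPKM, and POSTN (periostin) had 546, 530 and 984 UQRPKM. These genes, like DCN and PDGFRA, were within 1.08-fold between IM and CM and highest in CMT. Relative to IM, 3 genes in CMT were higher and 2 lower by 1.5-fold, against 8.81% and 11.9% of all genes (median -0.14).

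Across the 9 detected markers, few values passed 1.5-fold with at least 1 UQRPKM in both libraries. In CM versus IM, 0 were higher and 1, DPP4, was lower, where 8.38% and 10.4% of all 14123 mRNA genes tested were. In CMT versus CM, DPP4 was higher and 0 were lower, against 9.53% and 9.97% of 14098 genes. In CMT versus IM, PDGFRA was higher and 0 were lower, against 8.81% and 11.9% of 14151 genes. With 9 markers, 1 gene is a share near these backgrounds, so the number of markers past the threshold is not in itself a result about them.

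Counting intervals that lay wholly on one side of 0 were more frequent, since 8 of the markers rest on more than 1000 reads in every library. In CM versus IM they lay above 0 for 0 and below 0 for 5 markers, DPP4, ENG, CD34, PDGFRB and THY1, compared with 15.6% and 26.6% of all genes. In CMT versus CM they lay above 0 for 5 markers, DPP4, PDGFRA, DCN, LUM and ENG, and below 0 for PI16, compared with 17.3% and 21.1%. In CMT versus IM they lay above 0 for PDGFRA, DCN and LUM and below 0 for 5 markers, ENG, CD34, THY1, PDGFRB and PI16, compared with 15.0% and 29.5%. Genes with many reads have narrow intervals, so these shares of all genes, most of which have fewer reads, are lower for that reason too. The median log2 ratio of the markers was -0.21, 0.10 and -0.20 in the 3 comparisons, and that of all mRNA genes was -0.06, -0.02 and -0.08. Under the other scalings tried the split of all genes changed. Of all genes past 1.5-fold in CMT versus IM, 42.4% were higher as deposited, and between 53.2% and 57.0% were higher under median ratio or read-total scaling. Of all genes with an interval off 0, the share above it was 37.0% as deposited in CM versus IM and up to 49.8% under these scalings. The corresponding shares were 33.6% and up to 54.4% in CMT versus IM, and 45.0% and up to 57.5% between CMT and CM. Since each comparison shares a library with another, the 3 sets of ratios are not independent.

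Among mRNA genes with at least 1000 reads in both libraries, the absolute log2 ratio had a median of 0.16 and a 90th percentile of 0.41 in CM versus IM (2340 genes). ENG and CD34 exceeded that percentile. In CMT versus CM the values were 0.13 and 0.39, and PDGFRA and DCN exceeded the percentile. In CMT versus IM they were 0.19 and 0.47, and only PDGFRA exceeded the percentile among markers with that many reads. These ratios and percentiles are as deposited. Under the other scalings tried, CD34 in CM versus IM lay between -0.44 and -0.39, and DCN in CMT versus IM between 0.47 and 0.54. The percentiles were not recomputed under those scalings, so which markers exceed them may depend on the scaling.

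**Figure D3:**
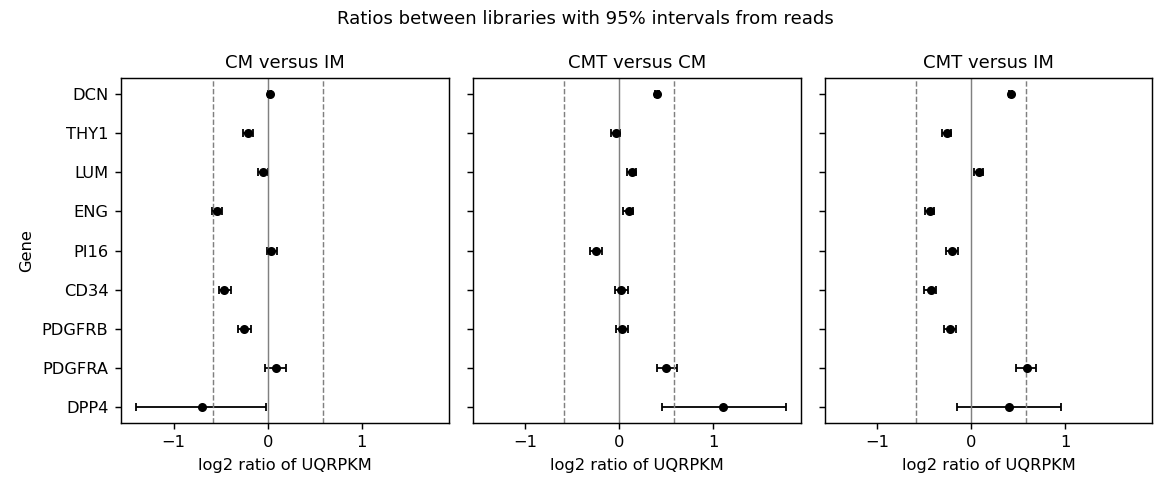
Log2 ratio of UQRPKM between libraries (horizontal axis) for each of the 9 detected markers (vertical axis) in 3 panels, 1 per pair of libraries. Bars are exact 95% intervals from reads, which cover counting error only, and dashed lines mark 1.5-fold. ENG, CD34, PDGFRB and THY1 lie left of 0 in both comparisons with IM, PDGFRA and DCN lie right of 0 in both comparisons of CMT, and DPP4 has by far the widest bars.

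**Figure D4:**
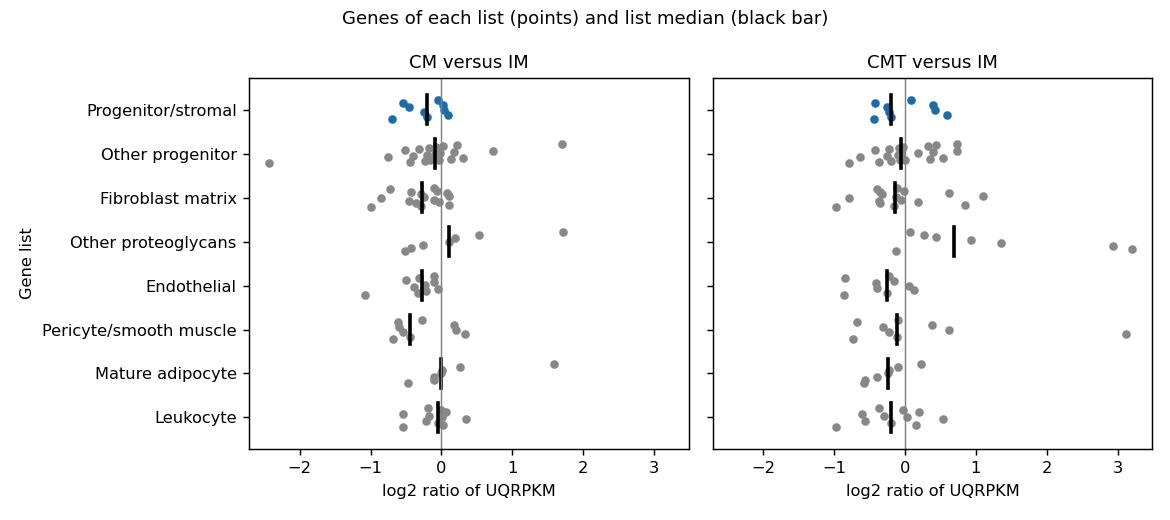
Log2 ratio of UQRPKM (horizontal axis) for the tested genes of 8 lists (vertical axis) in separate panels for CM versus IM and CMT versus IM, with 1 point per gene and a black bar at the median of the list. The marker medians stand at -0.21 and -0.20, and the endothelial medians at -0.27 and -0.26. Fibroblast matrix medians stand at -0.27 and -0.14, leukocyte medians at -0.05 and -0.20, and mature adipocyte medians at 0.00 and -0.24. Those of the other proteoglycans stand at 0.11 and 0.68.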

How the data were processed

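RNA-Seq values of 3 libraries, 1 per group, were analysed. Before deposition the authors filtered single-end Ion Proton reads, mapped them to Sscrofa 10.2 with MapSplice and deposited RPKM values scaled by the upper quartile of each library (UQRPKM). The counting tool and annotation are not given in the sources used here. Reads per gene were recovered as whole numbers at the shortest gene length, up to 120000 bases, that fitted all libraries, with a largest relative error of 7.65e-09. Reads are too low by that factor where a gene's reads in all libraries have a common divisor. They served for depth, intervals and alternatives, and UQRPKM gave all ratios, without a pseudocount. Markers were counted past 1.5-fold with at least 1 UQRPKM in both libraries, the study's thresholds without its test, because 1 library per group allows no test of the condition. The exact binomial test on reads with Benjamini-Hochberg adjustment, and the MA-plot formula of DEGSeq written out in Python 3.11.15 (scipy 1.17.1), were alternatives and compare libraries only. These steps were tested on simulated data.

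The markers and all gene lists were chosen with earlier results of these data known. Named from each list were its highest gene and the 2 largest differences past 1.5-fold in each direction and comparison with at least 10 reads in both libraries. Other list genes were named for their role, after their values were seen. All 10 marker symbols matched the RefSeq gene table of Sscrofa 11.1, which was used for gene order only. No coordinates or sequences are given.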

Additional observations from a re-analysis of the deposited data

How the results depend on the processing

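No paired analysis was possible because each group is 1 library, and for the same reason no replicate could be left out. A threshold of 2-fold left 0 markers for CM versus IM and 0 for CMT versus IM, instead of 1 each, and 1 for CMT versus CM. Adding the exact binomial test left 0 in CM versus IM, where DPP4 had an adjusted p of 0.0955 by that exact test on 30 and 51 reads. Adding the MA-plot formula left 0 for CM versus IM and 0 for CMT versus CM. The other minimums, a pseudocount of 1 UQRPKM and the scalings tried gave 1 in each comparison. Scaling by median ratio moved the median log2 ratio of the markers to -0.15 for CM versus IM and -0.12 for CMT versus IM. Scaling by total reads on mRNA genes gave -0.09 in CMT versus IM. Leaving genes at least 10-fold higher in 1 library out of that total, chosen after seeing the data, gave -0.15 and -0.09. Of 135 recomputed marker ratios, 0 whose interval excluded 0 changed sign, which these settings could not have brought about. The scalings only raised ratios, by at most 0.115, and every marker interval below 0 belonged to a ratio of -0.20 or lower. LUM in CM versus IM turned from -0.05 to at most 0.02, and THY1 in CMT versus CM from -0.04 to 0.01. Total reads shift every ratio in CMT versus IM by 0.113 on the log2 scale and raise the share of higher genes among those past 1.5-fold from 42.4% to 56.8%. Under it, the markers with intervals above and below 0 in CMT versus IM numbered 3 and 5, as before, while in CMT versus CM those above rose from 5 to 7 with CD34 and PDGFRB, both at 0.08. In CM versus IM, median-ratio scaling turned 0 and 5 into 3 and 4. DPP4 is limited by depth.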

Other observations

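Mature adipocyte markers did not all share a pattern across the libraries. Of 10 listed, FABP4 and LPL were not analysed here, CIDEA was at 0 in every library, and 7 were tested. In CM versus IM their median log2 ratio was 0.00, and LEP (leptin) was 3.01-fold higher in CM, at 167, 502 and 156 UQRPKM. PNPLA2 was lower in both castrated libraries than in IM, at 10283, 7431 and 7827 UQRPKM, and PPARG was higher, at 1454, 1745 and 1704. In CMT versus CM, 6 of 7 were lower in CMT with a median of -0.24, where 6670 of all 14098 genes tested were higher. In CMT versus IM, 6 of 7 were lower with a median of -0.24, where 5938 of all 14151 genes tested were higher. The summed level was 132843 UQRPKM in IM against 124145 in CM and 107194 in CMT, so the lowest sum was in the library where PDGFRA and DCN were highest.

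Leukocyte markers, of which 11 were tested, had medians of -0.05 for CM versus IM, -0.15 for CMT versus CM and -0.20 for CMT versus IM. CD14 was the highest, with 390, 395 and 339 UQRPKM, and CD163 was at 0 throughout. ITGAM, an integrin of myeloid cells, had 108, 138 and 73.5 UQRPKM, and CD3E, a component of the T cell receptor complex, had 71.9, 49.2 and 82.8 UQRPKM. Of the other T cell markers, CD3D had 35.0, 35.1 and 28.3 UQRPKM, CD2 had 121, 107 and 119, and CD8A had 80.2, 84.1 and 82.1. CD4 had 11.7, 8.02 and 5.95 UQRPKM, with an interval off 0 in CMT versus IM only (-1.67 to -0.30). The B cell markers were CD79A (25.3, 25.2 and 16.6 UQRPKM) and MS4A1 (3.37, 2.95 and 4.88). Counting intervals of CD3D, CD2, CD8A, CD79A and MS4A1 included 0 in all comparisons, so their orders of libraries are not resolved.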
